A study of Mus musculus with 31 samples.

Results

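Former Nkx2-1 sites gaining Foxa1/2 are 376 regions of the mouse genome where a Foxa1/2 binding peak was called in lung adenocarcinomas with deleted Nkx2-1, over a place that carried an Nkx2-1 peak and no Foxa1/2 peak in tumors that kept Nkx2-1. They were chosen from 14282 Foxa1/2 peaks of deleted tumors on chromosomes 1 to 19, as those that overlapped an Nkx2-1 peak of positive tumors by at least 1 bp and overlapped no Foxa1/2 peak of positive tumors. They made up 2.63% of those peaks (95% Wilson interval 2.38 to 2.91). Of the 14282 peaks, 32.9% were absent from the positive-tumor list and 39.4% overlapped an Nkx2-1 peak. Both conditions together left 8.01% (7.26 to 8.82) of the 4696 peaks absent from the positive-tumor list, called gained peaks here. The values that chose the regions are peak positions in 3 lists, so distances, overlaps and peak scores from those lists are given below as a description. The histone mark lists played no part in the choice.

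Nkx2-1 is a homeodomain protein that binds DNA and maintains the identity of lung epithelium, where it acts on surfactant genes among others. Foxa1 and Foxa2 are forkhead proteins that can bind nucleosomal DNA and help to open chromatin at enhancers of lung, liver and gut epithelium. In lung, the forkhead and Nkx2-1 proteins are known to share many regulatory regions. H3K4me1 marks enhancers, H3K27ac marks enhancers and promoters in use, H3K4me3 marks promoters, and H3K27me3 is laid down by Polycomb proteins at silenced genes.

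Chromatin immunoprecipitation with sequencing was done on lung tumors of mixed 129/B6 mice aged 4 to 7 months, with Nkx2-1 labelled as positive or deleted. Per the labels, mice received adenovirus or lentivirus into the trachea and tamoxifen at 56 or 112 micrograms per gram of body weight. The labels used here do not say which mouse received which agent or dose, and they give no oncogene, promoter or Cre allele. Nkx2-1 was measured in positive tumors (2 males), Foxa1/2 with an antibody against both proteins in positive tumors (2 males) and deleted tumors (2 females), and 4 histone marks in both tumor types (1 male and 1 female each). Tumor type and sex therefore cannot be told apart for Foxa1/2. A single input library was the control for an Nkx2-1 sample and also for histone samples of the male with positive tumors. Both files of each group held identical values and their names mark them as merged, so each group is a single list, no difference below has a replicate check, and no p-value is given. Nkx2-1 binding in deleted tumors, gene expression and the completeness of the deletion were not analysed here. In whole tumors, fewer cells with a bound site and weaker binding per cell cannot be told apart.

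On chromosomes 1 to 19 the lists held 29265 Nkx2-1 peaks and 22611 and 14282 Foxa1/2 peaks in positive and deleted tumors. Reads inside histone islands, the only depth the lists give, ranged from 18.5 to 45.7 M per list. Positive tumors had more of them for H3K27ac (45.7 against 31.2 M), H3K4me1 (35.8 against 29.8 M) and H3K4me3 (28.9 against 19.6 M). For H3K27me3 they had fewer (18.5 against 19.8 M). Islands of all 4 marks covered more of the genome in positive tumors, with 291.8 against 227.1 Mb for H3K27ac and 104.3 against 64.0 Mb for H3K4me3. Shares carry 95% Wilson intervals and differences carry 95% Newcombe intervals for paired shares. Both cover counting error only, treat regions as independent, and do not cover the spread between mice.

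The regions were acetylated and enhancer-marked in both tumor types. An H3K27ac island covered 367 of 376 in positive tumors (97.6%, interval 95.5 to 98.7) and 369 of 376 in deleted tumors (98.1%, 96.2 to 99.1), against 84.7% and 88.8% of all deleted-tumor Foxa1/2 peaks. The difference between tumor types was 0.532 percentage points, with an interval of -0.886 to 2.13 that includes 0. An H3K4me1 island covered 374 regions in positive and 375 in deleted tumors, against 91.0% and 95.6% of all deleted-tumor Foxa1/2 peaks. Positive tumors, where no Foxa1/2 peak was called, thus had islands of these marks at nearly every region. H3K27ac was present in both tumor types at 366 regions, against 81.9% of all deleted-tumor Foxa1/2 peaks. H3K4me1 was present in both at 374 (background 90.1%), in positive tumors only at none (0.826%), and in deleted tumors only at 1 (5.52%), on chromosome 9 from 51785429 to 51786238. It was present in neither at 1 region (3.53%), on chromosome 15 from 80541280 to 80542078, where H3K27ac and H3K4me3 covered 100% in both tumor types.

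Gained Foxa1/2 peaks away from Nkx2-1 peaks had other values. Of these 4320 peaks, an H3K27ac island covered 65.0% (63.5 to 66.4) in the positive type and 80.6% (79.4 to 81.8) in the deleted type, a difference of 15.7 points (14.4 to 17.0). H3K4me1 lay over 75.7% of them in positive tumors and over 91.0% in deleted tumors, 15.4 points apart (14.2 to 16.5). The intervals of both differences did not overlap those of the regions inside Nkx2-1 peaks. The regions already stood at 97.6% and 99.5% in positive tumors and could rise little, so the starting shares fixed this non-overlap. The same limit applies to the comparisons below with reduced islands and of H3K27ac in deleted tumors only. With positive-tumor islands reduced to the length covered in deleted tumors, the H3K27ac difference was 32.0 points (30.5 to 33.4) at gained peaks elsewhere and 5.59 points (3.38 to 8.40) at the regions, an interval that no longer includes 0. H3K27ac was present in deleted tumors only at 785 of the 4320 peaks (18.2%, 17.05 to 19.3) and at 3 of the 376 regions (0.798%, 0.272 to 2.32), against 6.96% of all deleted-tumor Foxa1/2 peaks. In positive tumors, 93.4% of all Nkx2-1 peaks lay under H3K27ac and 98.6% under H3K4me1, so overlap with an Nkx2-1 peak alone goes with shares of this order. The 5253 Foxa1/2 peaks that overlapped Nkx2-1 and were present in both tumor types, called kept peaks, had 99.1% and 97.4% under H3K27ac.

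**Figure D1:**
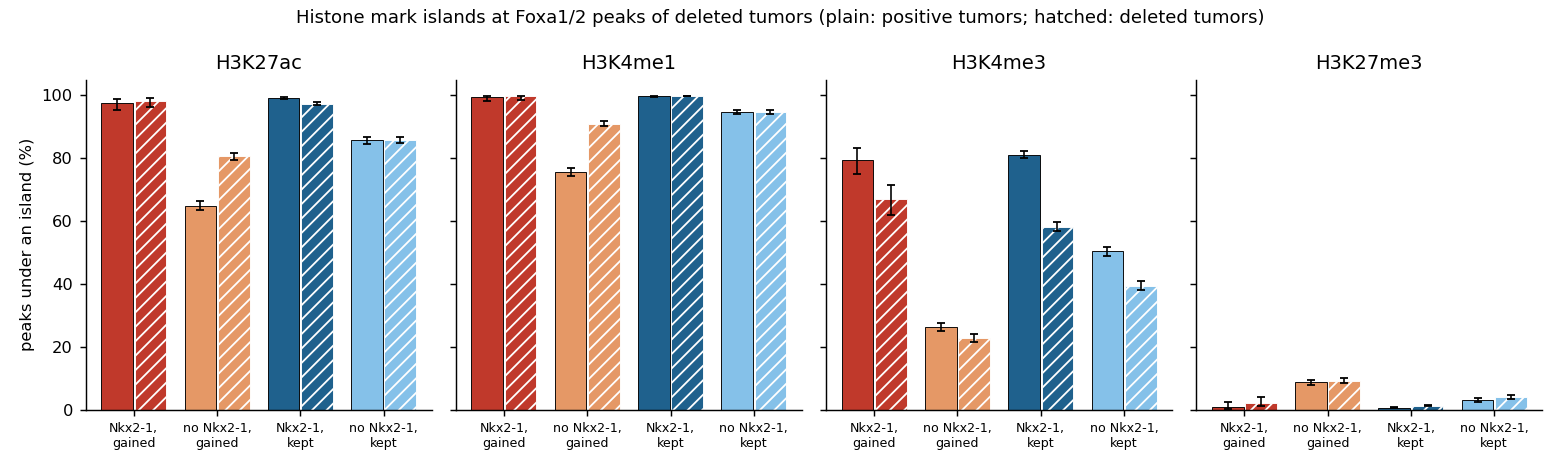
Share of deleted-tumor Foxa1/2 peaks under an island of each histone mark (y axis, percent) in positive tumors (plain bars) and deleted tumors (hatched bars), for peaks gained at Nkx2-1 sites (n = 376), gained elsewhere (n = 4320), kept at Nkx2-1 sites (n = 5253) and kept elsewhere (n = 4333). Error bars are 95% Wilson intervals over peaks; H3K27ac at gained Nkx2-1 sites is 97.6% and 98.1%, while at gained peaks elsewhere it is 65.0% and 80.6%.

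H3K4me3, the promoter mark, covered most of the regions and was called at fewer of them in deleted tumors. It covered 299 of 376 in positive tumors (79.5%, 75.2 to 83.3) and 252 of 376 in deleted tumors (67.0%, 62.1 to 71.6), against 55.2% and 42.1% of all deleted-tumor Foxa1/2 peaks. The difference was -12.5 points (-16.5 to -8.53), which overlaps the -13.1 points (-13.8 to -12.5) over all deleted-tumor Foxa1/2 peaks. It was -22.9 points (-24.1 to -21.8) at kept peaks with Nkx2-1, where the share went from 81.2% to 58.3%, and -3.47 points (-4.40 to -2.54) at gained peaks elsewhere, where it went from 26.3% to 22.8%. The share at the regions was lower in deleted tumors on 17 of 19 chromosomes, equal on 1 and higher on 1. All chromosomes come from the same merged H3K4me3 lists, which differ in reads and covered length, so this count is no replicate check. When the densest islands of positive tumors were kept up to the length covered in deleted tumors, which removes islands from positive tumors only, the difference at the regions turned to 27.1 points in favor of deleted tumors (22.4 to 31.6) and that over all deleted-tumor Foxa1/2 peaks to 18.6 points. It turned to 26.6 points (25.3 to 27.8) at kept peaks with Nkx2-1, an interval that lies within that of the regions, and to 11.1 points (10.1 to 12.2) at gained peaks elsewhere. The order of the 3 sets thus depends on this setting.

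Among regions acetylated in both tumor types, the H3K4me3 contrast with other gained peaks was smaller but present. H3K4me3 covered 81.4% (77.1 to 85.1) of 366 such regions in positive tumors, against 39.6% (37.8 to 41.5) of 2699 gained peaks elsewhere with H3K27ac in both. In deleted tumors the shares were 68.3% (63.4 to 72.9) and 34.1% (32.4 to 35.9).

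By H3K4me3 class, 244 regions had the mark in both tumor types, 55 in positive tumors only, 8 in deleted tumors only and 69 in neither. Over all deleted-tumor Foxa1/2 peaks the shares were 40.2% in both, 15.0% in positive only, 1.86% in deleted only and 42.9% in neither. The 55 regions that had H3K4me3 in positive tumors only make 14.6% of 376, which is near that background of 15.0%. At 8 of those 55 (14.5%, 7.56 to 26.2), the positive-tumor island was still called in part in deleted tumors, away from the Foxa1/2 peak. At the other regions of this class no piece of the island was called there. The share still called in part was 13.4% (11.6 to 15.4) at kept peaks with Nkx2-1. It was 22.4% (19.1 to 26.0) at kept peaks elsewhere and 30.3% (25.3 to 35.9) at gained peaks elsewhere. The positive-tumor islands at the 55 regions had a median width of 1600 bp, against 3000 bp over all 299 regions with H3K4me3 in positive tumors. In the same class, the median width was 1800 bp at kept peaks with Nkx2-1 and at gained peaks elsewhere, and 1600 bp at kept peaks elsewhere.

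The most frequent combination was H3K27ac with H3K4me1 and H3K4me3 and no H3K27me3, at 294 regions in positive tumors (78.2%, 73.7 to 82.1) and 242 in deleted tumors (64.4%, 59.4 to 69.0). H3K27ac with H3K4me1 alone, an enhancer-like set of marks, was present at 69 regions in positive tumors (18.4%, 14.8 to 22.6) and 118 in deleted tumors (31.4%, 26.9 to 36.2). At gained peaks elsewhere in positive tumors, those same combinations held 24.3% and 35.7%, and 16.3% (15.2 to 17.4) had no island of any of the 4 marks. At the regions inside Nkx2-1 peaks, 1 of 376 had none in positive tumors. Kept peaks with Nkx2-1 were close to the regions in positive tumors, at 80.6% and 17.9%, and 3 of 5253 had no island. In deleted tumors the same combinations held 57.1% and 39.1% of kept peaks with Nkx2-1. These combinations were thus not particular to the regions, and their shares over all deleted-tumor Foxa1/2 peaks were not computed.

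The islands over the regions were wide and dense within their lists. Of the regions with H3K27ac, 94.3% in positive and 97.0% in deleted tumors were covered over their full length, by islands with a median width of 8200 bp in positive and 9400 bp in deleted tumors. The median island stood at the 89.0th percentile of read density in the positive-tumor H3K27ac list and at the 88.0th in the deleted-tumor list. For gained peaks elsewhere, the median H3K27ac island was 5200 bp wide at the 69.9th percentile in positive tumors and 5600 bp wide at the 72.8th in deleted tumors. At kept peaks with Nkx2-1 it was 10000 bp wide at the 88.3rd percentile in positive tumors and 8400 bp wide at the 84.6th in deleted tumors. H3K4me3 islands over the regions ranked lower in their lists, at a median percentile of 58.9 in positive and 55.6 in deleted tumors. Of the 367 regions with H3K27ac in positive tumors, 156 (42.5%, 37.6 to 47.6) lay under an island that also held a positive-tumor Foxa1/2 peak. That share was 30.4% (28.7 to 32.1) for gained peaks elsewhere, whose islands were narrower.

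Foxa1/2 summits at the regions lay farther from the Nkx2-1 summit than those of kept peaks. The distance between summits ranged from 1 to 2271 bp, with quartiles of 73.5 and 582 bp and a median of 240.5 bp. At kept peaks with Nkx2-1 the median was 96 bp, with quartiles of 40 and 300.0 bp. Summits lay within 100 bp of each other at 117 regions (31.1%, 26.6 to 36.0) and at 51.2% (49.9 to 52.6) of kept peaks. They lay within 500 bp at 266 regions (70.7%, 66.0 to 75.1) and at 84.3% of kept peaks. The Foxa1/2 summit fell inside the Nkx2-1 peak at 272 regions (72.3%, 67.6 to 76.6), against 92.0% of kept peaks. The overlap itself had a median of 597.5 bp at the regions, whose median width was 814.5 bp, and of 827 bp at kept peaks, whose median width was 957 bp. The part of peak width and of peak score in the difference in summit distance was not tested.

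**Figure D2:**
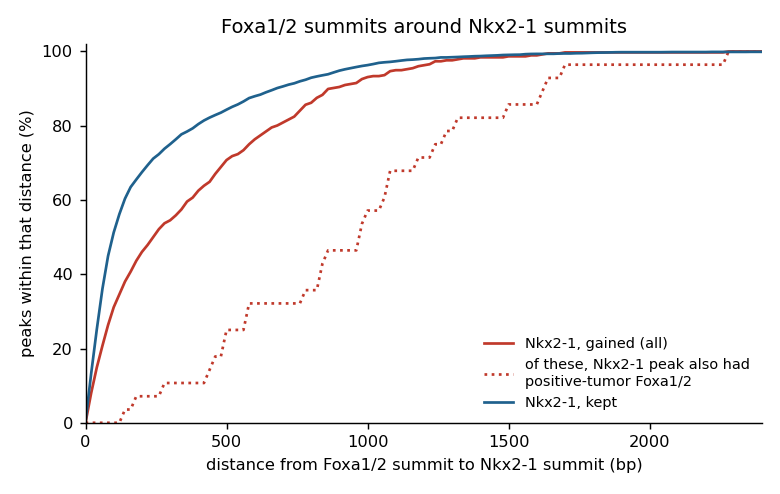
Cumulative share of peaks (y axis, percent) by distance between the Foxa1/2 summit and the nearest summit of an overlapping Nkx2-1 peak (x axis, bp), for the 376 gained sites, the 28 of them whose Nkx2-1 peak also overlapped a positive-tumor Foxa1/2 peak, and 5253 kept peaks. The curve of gained sites stays below that of kept peaks up to 1000 bp, with 31.1% against 51.2% within 100 bp, and the 28 sites lie farthest to the right with a median of 963.5 bp.

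At 28 regions (7.45%, 5.20 to 10.6) the same Nkx2-1 peak also overlapped a positive-tumor Foxa1/2 peak that the gained peak did not touch. There the Foxa1/2 and Nkx2-1 summits were a median of 963.5 bp apart and the positive-tumor peak was 17 to 930 bp away (median 243.5 bp), a closeness that sharing an Nkx2-1 peak imposes. At the other 348 regions the Nkx2-1 peak overlapped no positive-tumor Foxa1/2 peak, the median distance between summits was 208 bp, and the nearest positive-tumor Foxa1/2 peak was a median of 11989 bp away. The distances of both kinds overlap, since 21 of the 348 also lay within 1000 bp of a positive-tumor Foxa1/2 peak, the nearest at 156 bp. Of the 376 regions, 370 overlapped a single Nkx2-1 peak and 6 overlapped 2.

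Most regions were some kilobases from any positive-tumor Foxa1/2 peak. The distance to the nearest ranged from 17 to 312213 bp, with quartiles of 2412 and 27896.5 bp and a median of 10654 bp. It was at most 1000 bp at 49 regions (13.0%, 10.0 to 16.8) and at most 10000 bp at 184 (48.9%, 43.9 to 54.0). Gained peaks elsewhere lay farther away, with a median of 18315.5 bp, 6.39% (5.70 to 7.16) within 1000 bp and 36.3% (34.9 to 37.7) within 10000 bp. The nearest positive-tumor Foxa1/2 peak was also called in deleted tumors for 166 regions (44.1%, 39.2 to 49.2), near the 42.1% (41.5 to 42.7) of all positive-tumor peaks. For gained peaks elsewhere that share was 52.4% (50.9 to 53.9).

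**Figure D3:**
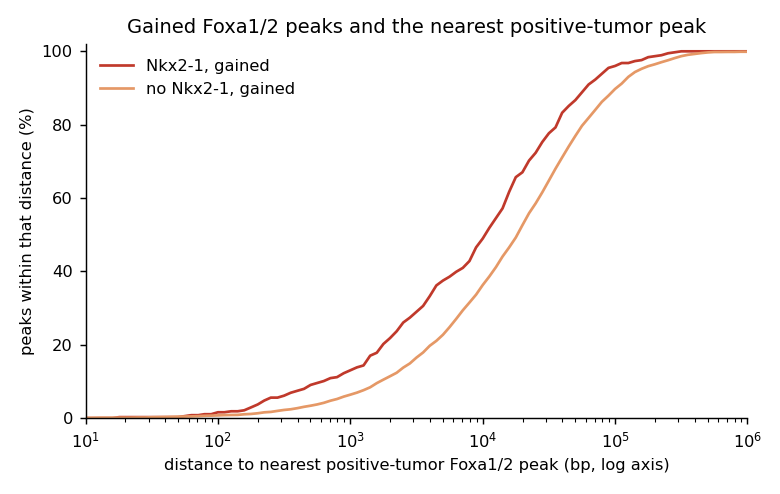
Cumulative share of gained Foxa1/2 peaks (y axis, percent) by distance from the peak's edge to the nearest positive-tumor Foxa1/2 peak (x axis, bp, log axis), for 376 peaks at Nkx2-1 sites and 4320 elsewhere. The curve of Nkx2-1 sites lies to the left, with medians of 10654 and 18315.5 bp.

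At the edges of the rule the values ran on without a gap. The shortest overlaps with an Nkx2-1 peak were 5, 6 and 7 bp, at chromosome 5 from 147486666 to 147487552, chromosome 7 from 119805812 to 119806533 and chromosome 7 from 56552178 to 56553055 (build mm9, 1-based, as for every position here). The gained peaks just outside lay 4, 5 and 8 bp from an Nkx2-1 peak. The regions nearest to a positive-tumor Foxa1/2 peak were 17, 52 and 58 bp from it, at chromosome 8 from 126726546 to 126727388, chromosome 18 from 70804435 to 70805138 and chromosome 4 from 59661085 to 59661752. The peaks with Nkx2-1 just outside, counted as kept, overlapped a positive-tumor Foxa1/2 peak by 11, 21 and 39 bp. All 3 of these nearest regions had low Foxa1/2 scores, of 70, 73 and 66.

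Median peak scores were below the median of the whole list for both Foxa1/2 and Nkx2-1. The score is the one the authors' peak caller gave each peak, on a scale that starts at 60, and it is compared only within a list. The median Foxa1/2 score of the regions was 92 (quartiles 72 and 137, highest 957), against 152 for all deleted-tumor Foxa1/2 peaks, 104 for gained peaks elsewhere and 211 for kept peaks with Nkx2-1. With the Foxa1/2 list split by score in 10 equal parts, the regions made up 5.67% (4.58 to 6.99) of the lowest part and 0.350% (0.150 to 0.817) of the highest. Gained peaks as a whole were also fewer at high scores, with 826 in the lowest part and 76 in the highest. As a share of gained peaks, the regions were 9.81% (7.96 to 12.02) in the lowest part and 6.58% (2.84 to 14.5) in the highest, with overlapping intervals. Of the 376 regions, 74 (19.7%, 15.98 to 24.0) scored above the median of the Foxa1/2 list and 144 (38.3%, 33.5 to 43.3) had an Nkx2-1 peak above the median of the Nkx2-1 list, and 22 were above both. The median Nkx2-1 score was 134.5 at the regions, 162 over the Nkx2-1 list and 231 at kept peaks. Over the 15302 Nkx2-1 peaks with no positive-tumor Foxa1/2 peak it was 123. The 28 regions whose Nkx2-1 peak also overlapped a positive-tumor Foxa1/2 peak lie outside that set. Without them the median Nkx2-1 score at the regions was 127, so the other 348 regions were not low against those peaks. Across the 376 regions, which share the same libraries, Spearman's rho between both scores was -0.00975, given as a description. Whether a Foxa1/2 peak below the calling threshold was present in positive tumors was not tested.

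The difference in H3K4me3 between tumor types had no steady order over Foxa1/2 scores, and its size at high scores depended on where the list was split. In the highest 4 of these 10 parts stood 40 regions. Of these, 65.0% (49.5 to 77.9) had H3K4me3 in each tumor type and 100% had H3K27ac in both. In the middle 3 parts stood 122 regions, with H3K4me3 at 82.0% (74.2 to 87.8) in positive and 67.2% (58.5 to 74.9) in deleted tumors. In the lowest 3 parts stood 214 regions, with H3K4me3 at 80.8% (75.0 to 85.6) in positive and 67.3% (60.7 to 73.2) in deleted tumors. The intervals of the high and low groups overlapped in both tumor types. The 76 regions above the median of the Foxa1/2 list over every chromosome had H3K4me3 at 75.0% in positive and 69.7% in deleted tumors. That median differs from the one on chromosomes 1 to 19, above which 74 regions scored. In the highest 4 parts, gained peaks elsewhere also had near-equal shares of 20.5% (17.9 to 23.4) and 21.1% (18.5 to 24.0), and kept peaks with Nkx2-1 had 82.2% and 60.3%. The median distance to the Nkx2-1 summit was 399 bp in the high group and 215.5 bp in the low group.

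**Figure D4:**
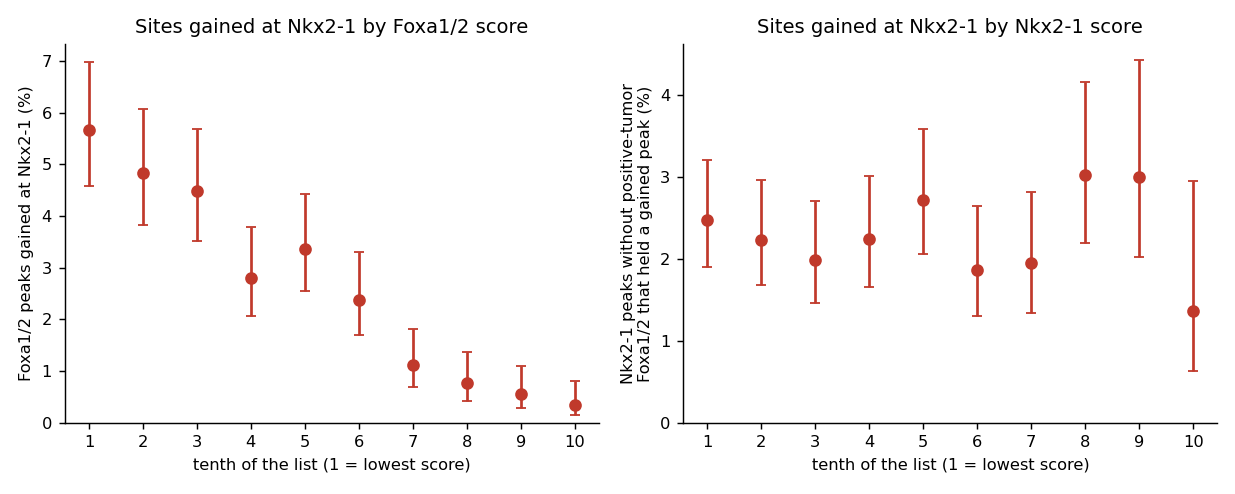
Left, share of deleted-tumor Foxa1/2 peaks that were gained at an Nkx2-1 site (y axis, percent) in each of 10 equal parts of the list by Foxa1/2 score (x axis, 1 is lowest); right, share of Nkx2-1 peaks with no positive-tumor Foxa1/2 peak that held a gained Foxa1/2 peak (y axis, percent) in each of 10 parts by Nkx2-1 score. Points are shares with 95% Wilson intervals; the left panel goes from 5.67% to 0.350%, where gained peaks of any kind number 826 and 76, and the right panel stays between 1.37% and 3.03%.

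Seen from the Nkx2-1 side, gain of a Foxa1/2 peak was rare. Of 15302 Nkx2-1 peaks with no Foxa1/2 peak in positive tumors, 353 (2.31%) held a gained Foxa1/2 peak, and 14905 had no Foxa1/2 peak in deleted tumors either. The few remaining ones overlapped only deleted-tumor Foxa1/2 peaks that were counted as kept. The share that held a gained peak had no steady order over Nkx2-1 scores. With the Nkx2-1 list split by score in 10 equal parts, it was 2.47% (1.90 to 3.21) in the lowest part, 3.03% (2.19 to 4.16) in part 8 and 1.37% (0.628 to 2.95) in the highest. The Nkx2-1 peaks with a gained peak and the 14905 with no Foxa1/2 peak had median scores of 127 and 123 and median widths of 876 and 860 bp.

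H3K27ac stayed called where Foxa1/2 was gained and was less often called at Nkx2-1 peaks with no Foxa1/2 peak in either tumor type. It also stayed called at most kept Foxa1/2 peaks with Nkx2-1 (99.1% and 97.4%), so this was not particular to gained peaks. At the 353 peaks H3K27ac covered 98.0% (96.0 to 99.0) in positive and 98.3% (96.3 to 99.2) in deleted tumors, a difference of 0.283 points (-1.38 to 2.03). At the 14905 peaks without Foxa1/2 it covered 91.1% (90.6 to 91.5) and 78.0% (77.3 to 78.7), a difference of -13.1 points (-13.6 to -12.5). H3K4me1 went from 99.7% to 100% at the former and from 97.5% to 89.8% at the latter. H3K4me3 went from 79.6% to 66.9% and from 66.0% to 49.6%, differences of -12.7 points (-16.9 to -8.58) and -16.4 points (-17.0 to -15.7) whose intervals overlap. H3K27me3 went from 1.13% to 2.27% at the former and from 2.11% to 4.19% at the latter, differences of 1.13 points (-0.479 to 3.08) and 2.08 points (1.84 to 2.34) whose intervals overlap. With positive-tumor islands reduced to equal covered length, the H3K27ac differences were 5.95 and -2.60 points, and the H3K4me3 differences turned to 27.8 and 6.39 points.

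Split by H3K27ac, 344 of 11899 such Nkx2-1 peaks with the mark in both tumor types held a gained Foxa1/2 peak (2.89%, 2.60 to 3.21). Of 2065 with the mark in positive tumors only, a class that holds 13.5% of the 15302 peaks, 2 held one (0.0969%, 0.0266 to 0.352). These, named after their values were seen, were the Nkx2-1 peaks on chromosome 1 from 170197071 to 170197923 and chromosome 13 from 49253249 to 49254228. H3K27ac in positive tumors only was also uncommon over all deleted-tumor Foxa1/2 peaks (2.82%) and over kept peaks with Nkx2-1 (2.02%). Of 118 with the mark in deleted tumors only, 3 held one (2.54%, 0.868 to 7.21), and of 1220 with the mark in neither, 4 held one (0.328%, 0.128 to 0.840). Split by H3K4me3, the shares were 2.99% (2.63 to 3.40) of 7614 peaks with the mark in both, 2.09% (1.60 to 2.72) of 2537 in positive only, 1.25% (0.984 to 1.60) of 5102 in neither, and 8 of 49 (16.3%, 8.51 to 29.0) in deleted only. Presence of a mark in deleted tumors and gain of Foxa1/2 were both measured after deletion, so their order cannot be told apart.

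**Figure D5:**
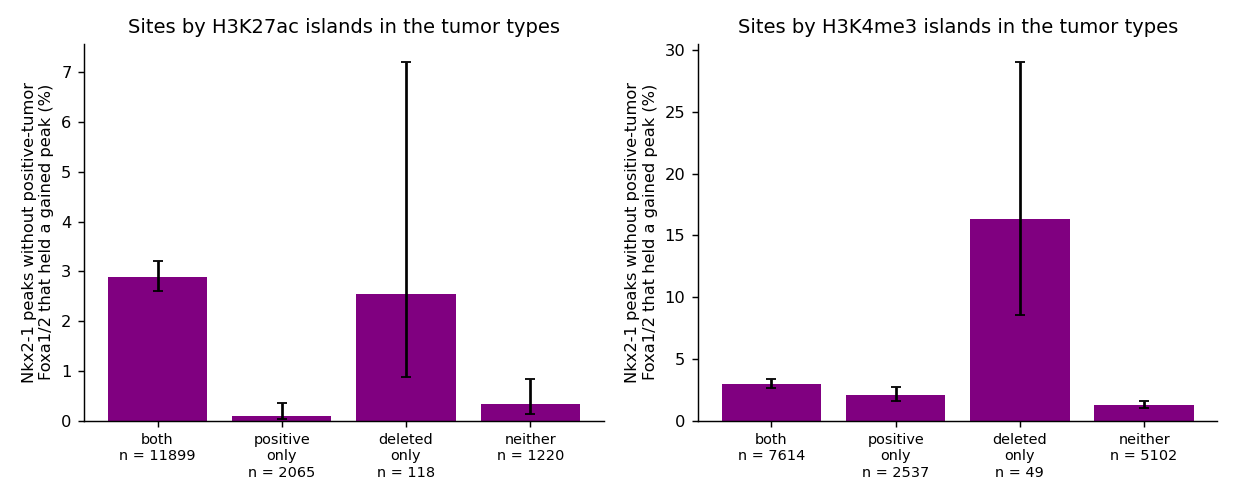
Share of Nkx2-1 peaks with no positive-tumor Foxa1/2 peak that held a gained Foxa1/2 peak in deleted tumors (y axis, percent), by whether an island of H3K27ac (left) or H3K4me3 (right) covered the Nkx2-1 peak in both tumor types, positive only, deleted only or neither. Error bars are 95% Wilson intervals and the y axes differ; on the left, 2.89% with the mark in both stands against 0.0969% with it in positive tumors only.

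The 3 highest Foxa1/2 scores among regions acetylated in both tumor types stood at sites without the promoter mark. High scores did not go without it in general, since 65.0% of the 40 regions in the highest 4 score parts had H3K4me3 in each tumor type. The region on chromosome 16 from 4775115 to 4776362 had a Foxa1/2 score of 957, that on chromosome 4 from 9600976 to 9602157 a score of 878 and that on chromosome 18 from 61395431 to 61396420 a score of 807. All 3 were covered over 100% by H3K27ac and H3K4me1 in both tumor types and over 0% by H3K4me3 and H3K27me3. Their Nkx2-1 scores were low, at 80, 100 and 143. On chromosome 18 the Foxa1/2 summit lay 1 bp from the Nkx2-1 summit, and on chromosomes 16 and 4 the summits were 346 and 383 bp apart.

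The 3 regions with the highest Nkx2-1 scores differed from those 3 in positive-tumor H3K4me3 and in the distance between summits. They lay on chromosome 13 from 70792806 to 70793443, chromosome 19 from 38100810 to 38101875 and chromosome 5 from 145964702 to 145965451, with Nkx2-1 scores of 3100, 2625 and 2238 and Foxa1/2 scores of 61, 160 and 80. Each overlapped a wide Nkx2-1 peak that also overlapped a positive-tumor Foxa1/2 peak, with summits 2271, 1178 and 961 bp apart and the positive-tumor peak 692, 360 and 340 bp away. H3K4me3 covered all 3 over 100% in positive tumors and the one on chromosome 13 over 0% in deleted tumors.

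The regions farthest from positive-tumor Foxa1/2 binding lay on chromosome 12 from 53579523 to 53580286, chromosome 13 from 94542363 to 94543056 and chromosome 18 from 6764531 to 6765279, at 312213, 272190 and 248685 bp. H3K27ac, H3K4me1 and H3K4me3 covered 100% of each in positive tumors and at least 89.8% in deleted tumors. Their scores were low in both lists, with Foxa1/2 scores of 91, 66 and 70 and Nkx2-1 scores of 88, 73 and 86.

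Of the 376 regions, 10 lacked H3K27ac in at least 1 tumor type. The mark was present in both tumor types at 97.3% of the regions. That share was 81.9% over all deleted-tumor Foxa1/2 peaks and 97.1% at kept peaks with Nkx2-1, near that of the regions. The mark was present in positive tumors only at chromosome 1 from 170196777 to 170197457, against 2.82% of all deleted-tumor Foxa1/2 peaks. It was present in deleted tumors only at 3 regions, against 6.96% of all deleted-tumor Foxa1/2 peaks. They lay on chromosome 18 from 75140819 to 75141692, chromosome 15 from 99862883 to 99863642 and chromosome 8 from 24851007 to 24851666, where H3K27ac covered the whole peak. In these last 3 the Foxa1/2 and Nkx2-1 summits were 23, 70 and 42 bp apart and H3K4me1 covered 100% in both tumor types. The region on chromosome 18 also had H3K4me3 over 100% in deleted tumors and 0% in positive tumors. Neither tumor type had H3K27ac at 6 regions, against 8.34% of all deleted-tumor Foxa1/2 peaks. The 3 of highest Foxa1/2 score among them lay on chromosome 18 from 80876871 to 80877631, chromosome 13 from 49254165 to 49254965 and chromosome 9 from 51785429 to 51786238. H3K4me1 covered the first and second in both tumor types, and went from 0% to 100% at the third.

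H3K4me3 was called in deleted tumors only at 8 regions (2.13%), near the 1.86% of all deleted-tumor Foxa1/2 peaks. Those with the highest Foxa1/2 scores lay on chromosome 17 from 7012318 to 7013526, chromosome 12 from 17744902 to 17745820 and chromosome 11 from 32245108 to 32246508, with scores of 272, 267 and 177. H3K4me3 covered 73.0%, 45.7% and 93.4% of them in deleted tumors, and H3K27ac and H3K4me1 covered 100% in both tumor types. The 8 regions had a median Foxa1/2 score of 133 and a median Nkx2-1 score of 81.5.

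Polycomb marking was rare. H3K27me3 covered 3 regions in positive tumors (0.798%, 0.272 to 2.32) and 8 in deleted tumors (2.13%, 1.08 to 4.14), against 3.79% and 4.54% of all deleted-tumor Foxa1/2 peaks, and the difference of 1.33 points had an interval of -0.0127 to 3.14. The mark was present in both tumor types at 3 regions (background 3.19%), in deleted tumors only at 5 (1.35%) and in positive tumors only at none (0.602%). All 8 also had H3K27ac, H3K4me1 and H3K4me3 in deleted tumors. The highest Foxa1/2 score among them, 537, stood on chromosome 2 from 147870811 to 147871853, where H3K27me3 covered 0% in positive and 100% in deleted tumors. Its Nkx2-1 peak also overlapped a positive-tumor Foxa1/2 peak, 298 bp from the region. The next were chromosome 8 from 94888521 to 94889324, under H3K27me3 over 100% in both tumor types, and chromosome 6 from 29643449 to 29644286, where H3K27me3 went from 100% to 42.0% and H3K27ac from 10.3% to 100%.

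The regions lay on all 19 chromosomes, most of them with no other region within 10000 bp. The median distance to the next region was 1087479.5 bp, and 21 regions (5.59%, 3.68 to 8.39) had another within 10000 bp, against 15.7% (14.7 to 16.8) of the more numerous gained peaks elsewhere. A single Nkx2-1 peak held 2 regions. Regions made up 13.7% (10.2 to 18.0) of gained peaks on chromosome 11 and 13.75% (9.26 to 19.9) on chromosome 18, against 8.01% over all 19 chromosomes, and 4.87% (2.87 to 8.15) on chromosome 10, the lowest.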

How the data were processed

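Libraries were read from one end for 40 to 50 bases, per the labels' protocols. Bowtie, MACS 1.4.2 and SICER 1.1 appear in the submitters' processing notes with mm9 as the build, and their roles are not stated. Peak lists carry a p of 1e-06 in their names and, per the file headers, are merged; the deposited score of each peak was used only within a list. Island lists carry a window of 200 bp, a gap of 200 or 600 bp and an FDR of 0.01 in their names, and each island has a deposited read count that is not scaled for depth. The 22 files formed 11 groups with 2 identical files each. The deposited summit position of each peak (another column) was used for distances.

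Overlap meant at least 1 bp. A peak sharing 1 bp or more with an island was counted as marked. Intervals are Wilson intervals and Newcombe intervals for paired shares, at 95%. Scores were grouped in 10 equal parts of the list on chromosomes 1 to 19. The upper 50% of a list was taken over every chromosome. Functions were tested on simulated intervals. Python 3.11.15, numpy 2.4.6, scipy 1.17.1 and matplotlib 3.10.9 were used. Alternatives were other overlap rules, upper parts of the lists, a distance of over 1000 bp from positive-tumor Foxa1/2 peaks, islands over 50% of the peak or over the summit, and equal covered length. Regions were named by rule: 3 per H3K27ac class by Foxa1/2 score, and 3 each at the extremes of Nkx2-1 score, distance and overlap and of the classes with H3K27me3 in deleted tumors or H3K4me3 in deleted tumors only; a region alone in its H3K4me1 class and 2 Nkx2-1 peaks were named after their values were seen. The regions and settings were chosen with earlier results of these data known. Reference tables of build mm9 were not used here, and genes, sequences and motifs were not analysed here.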

Additional observations from a re-analysis of the deposited data

How the results depend on the processing

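Of 136 values recomputed under an alternative, 98 stayed within the interval of the reported value, 35 moved beyond it and 3 turned direction. Some of the 98 could not move. Equal covered length cut positive-tumor islands only, so the deleted-tumor shares under it repeat the reported values. The tally is therefore no measure of stability. The interval was the Wilson or Newcombe one for shares, a 95% order-statistic interval for medians (192 to 308 bp for the summit distance) and 1.5 times for the number of regions. The number of regions was 123 with the upper 50% of each peak list by score. The share of gained peaks at Nkx2-1 sites was 6.16% with an overlap of 50% of the shorter interval, 5.07% with summits within 200 bp and 4.70% with the upper 50% of each peak list. The median distance to the Nkx2-1 summit was 141.5 bp with an overlap of 50% and 361 bp for regions in the upper 50% of the Foxa1/2 list.

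Islands over 50% of the peak gave 97.6% for H3K4me1 in positive and 61.4% for H3K4me3 in deleted tumors. Islands over the summit gave 97.3% and 61.4%, and an H3K4me1 difference of 1.60 points. The upper 50% of each island list gave, in positive and deleted tumors, 92.0% and 92.8% for H3K27ac, 92.8% and 96.3% for H3K4me1 (a difference of 3.46 points) and 52.7% and 39.6% for H3K4me3, with 1.06% for H3K27me3 in deleted tumors. Equal covered length gave 92.6% for H3K27ac and 39.9% for H3K4me3 in positive tumors, and differences of 5.59 and 27.1 points; removing islands from the positive list only shifts each difference this way by construction. Regions in the upper 50% of the Foxa1/2 list had 100% for H3K27ac and H3K4me1 in both tumor types, 75.0% for H3K4me3 in positive tumors with a difference of -5.26 points, and 0% for H3K27me3 in positive tumors.

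At Nkx2-1 peaks with no Foxa1/2 peak, the H3K27ac difference was -12.5 points for islands over 50% of the peak and -12.2 over the summit, and the H3K4me3 difference was -17.1 over 50% of the peak and -9.16 with the upper 50% of each island list. With equal covered length the H3K27ac differences were 5.95 points at peaks with a gained peak and -2.60 at those without, and the H3K4me3 differences turned to 27.8 and 6.39. These settings for Nkx2-1 peaks were chosen after seeing the data. So was the removal of the 28 regions whose Nkx2-1 peak also overlapped a positive-tumor Foxa1/2 peak. That removal kept 348 of the 376 regions, so values could move little, and it moved no recomputed value beyond these limits. No paired analysis was possible because both files of each group hold the same merged list. Replicates could not be left out for the same reason, and total library depth is not stated by the files or labels.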
